A study of Mus musculus with 10 samples.

Results

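The dual-specificity MAP kinase phosphatases examined here are Dusp1, Dusp2, Dusp4, Dusp5, Dusp6, Dusp7, Dusp10 and Dusp16, and every probe set that the platform annotation assigns to exactly 1 of these symbols was taken. This gave 12 probe sets of 8 genes, among 45101 probe sets and 18193 annotated genes on the array. Of these, 8 probe sets of 7 genes passed a filter on dim signals and were tested with all 27022 probe sets that passed it. RNA came from CD4+ cells of the spleens of C57Bl/6 mice, 8 to 12 weeks old, with 1 mouse per Affymetrix array. Cecal ligation and puncture (CLP), a model of polymicrobial peritonitis, was done in 5 mice, and 5 sham mice had a laparotomy without that injury. Both groups had halothane and abdominal surgery and gave their spleens 6 h later, so sham values are those of operated, not of untouched, animals. Cells were enriched by magnetic negative selection to about 91% CD4+ per the series description, and the RNA was amplified in 2 rounds. In such bulk RNA, fewer cells of a type and less RNA per cell cannot be told apart.

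MAP kinases (ERK, JNK and p38) carry signals from the T cell receptor, cytokines and stress to the nucleus, and they are active only while a threonine and a tyrosine of their activation loop are both phosphorylated. MAP kinase phosphatases remove both phosphates and so set how long and how strongly the kinases signal. Dusp1, Dusp2, Dusp4 and Dusp5 are nuclear enzymes whose genes are switched on by the signals that they end, Dusp6 and Dusp7 are cytoplasmic and act on ERK, and Dusp10 and Dusp16 act mainly on JNK and p38. Dusp1 is also a target gene of the glucocorticoid receptor, and Dusp2 was first described in activated T cells.

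In CLP mice 1 of the 8 tested probe sets rose and none fell. That probe set was Dusp1, at 1.95-fold its sham level (95% interval 1.61 to 2.36). Dusp16, Dusp2 and Dusp10 had higher means in CLP arrays, by 1.56-, 1.34- and 1.34-fold, and did not pass the test over all probe sets. Dusp5, Dusp6 and Dusp7 had folds between 0.875 and 1.09, and Dusp4 lay near background. Across the whole array 0.167% of tested probe sets rose and 0.537% fell at the same threshold, an adjusted p of 0.05 by limma.

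Dusp1 was the member that rose, and Dusp5 the member with a level that differed between classes of arrays described further on. The sequences of the region before the start of transcription are shown for these members. Both are the 250 bases before the annotated start in RefSeq (build GRCm38.p6), which held a window for 7 of the 8 genes. The Dusp1 window is chr17:26508473-26508722 on the minus strand, and its capitals mark a cAMP response element, TGACGTCA, and an E-box, CACGTG. The Dusp5 window is chr19:53528895-53529144 on the plus strand, and its capitals mark a pair of adjoining CArG boxes, the motif of serum response factor.
Dusp1: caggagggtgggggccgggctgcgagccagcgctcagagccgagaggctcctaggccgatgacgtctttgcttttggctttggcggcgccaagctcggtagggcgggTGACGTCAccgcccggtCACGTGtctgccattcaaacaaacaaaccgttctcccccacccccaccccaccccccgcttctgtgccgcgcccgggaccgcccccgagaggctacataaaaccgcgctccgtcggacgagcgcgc
Dusp5: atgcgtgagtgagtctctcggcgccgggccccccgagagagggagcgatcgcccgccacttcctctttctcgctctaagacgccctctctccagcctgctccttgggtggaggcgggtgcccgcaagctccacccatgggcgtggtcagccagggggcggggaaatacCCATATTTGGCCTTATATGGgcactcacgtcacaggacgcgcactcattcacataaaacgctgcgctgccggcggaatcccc

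Motifs were searched on both strands of these windows and of all 32851 RefSeq windows of the same length. The cAMP response element of Dusp1 lies 143 to 136 bases before the start and its E-box 126 to 121 bases before it, and they do not overlap. The element TGACGTCA was present in 1 of the 7 members and in 1.55% of all windows. The E-box was present in Dusp1 and Dusp2 and in 6.02% of all windows. The CArG boxes of Dusp5 lie 82 to 73 and 72 to 63 bases before the start, and 1.47% of all windows held at least 1 CArG box. None of the 7 windows held the AP-1 site TGANTCA (6.75% of all windows), the glucocorticoid response element (GNACA and TGTNC with 3 bases between them, 0.387%), the TATA box TATAAA (12.4%) or an NF-kB site (5.93%). A missing match says only that these letters are absent from these 250 bases. The Dusp16 window, chr6:134792629-134792878, lay inside the annotated gene (134715468 to 134807063), so the bases before its outer start were not searched. The Dusp7 window ended at 106368631, past the first base of the annotated gene at 106368560.

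Among the nuclear, inducible members, Dusp1 (MKP-1, which acts on p38, JNK and ERK) was read by 1 probe set. Its log2 intensities were 10.93, 11.23, 11.10, 11.08 and 11.04 in CLP arrays 1 to 5, and 10.44, 9.79, 9.90, 10.17 and 10.27 in sham arrays 1 to 5. Every CLP array lay above every sham array, with a gap between the lowest CLP array and the highest sham array. As scaled intensities these were 1957 to 2398 in CLP arrays and 886 to 1388 in sham arrays. The mean was 11.08 ± 0.11 in CLP and 10.11 ± 0.26 in sham arrays (SD, n = 5 each). The difference of 0.96 ± 0.13 (SE) had an adjusted p of 0.0163 by limma and ranked 11th by p-value and 51st by size of rise among the 27022 probe sets. Dusp1 was the only 1 of the 8 tested members with no overlap between groups, where 0.862% of all tested probe sets lay wholly above sham and 2.11% wholly below. The call was lost when no filter on dim probe sets was used (adjusted p = 0.0647), with CLP replicate 5 left out (0.0561) and with sham replicate 3 left out (0.073), while the log2 fold change stayed between 0.88 and 1.05 with any 1 array left out.

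Dusp2 (PAC-1, a phosphatase of lymphoid and myeloid cells) gave log2 intensities of 10.45, 10.88, 10.56, 10.93 and 10.68 in CLP arrays 1 to 5 and of 10.18, 9.90, 10.36, 10.15 and 10.81 in sham arrays 1 to 5. All 5 CLP arrays lay above 4 of the sham arrays, and sham replicate 5 lay within the CLP range. The means were 10.70 ± 0.21 in CLP and 10.28 ± 0.34 in sham arrays (SD, n = 5 each), and they differed by 0.42 ± 0.16 on the log2 scale (SE, 95% interval 0.06 to 0.77, adjusted p = 0.331 by limma). Without sham replicate 5 the value was 0.55, with an adjusted p of 0.11.

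Dusp5, which is specific for ERK and is retained with it in the nucleus, gave 7.74, 7.59, 8.25, 7.33 and 7.87 in CLP arrays 1 to 5 and 7.88, 7.18, 8.16, 7.45 and 8.33 in sham arrays 1 to 5, as log2 intensities. The groups overlapped over nearly their whole range. The log2 fold change was -0.04 ± 0.23 (SE), with a 95% interval from -0.55 to 0.46. Dusp4 (MKP-2), the remaining nuclear member, had a mean log2 intensity of 6.62, just under the filter at 6.71, and was not tested with the rest. Its scaled intensities were 82.0 to 147 in CLP and 75.1 to 107 in sham arrays, against a floor of 70.4. With no filter its log2 fold change was 0.13 ± 0.17 (SE, adjusted p = 1 by limma), and CLP replicate 2, at 7.20, was its brightest array.

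**Figure D1:**
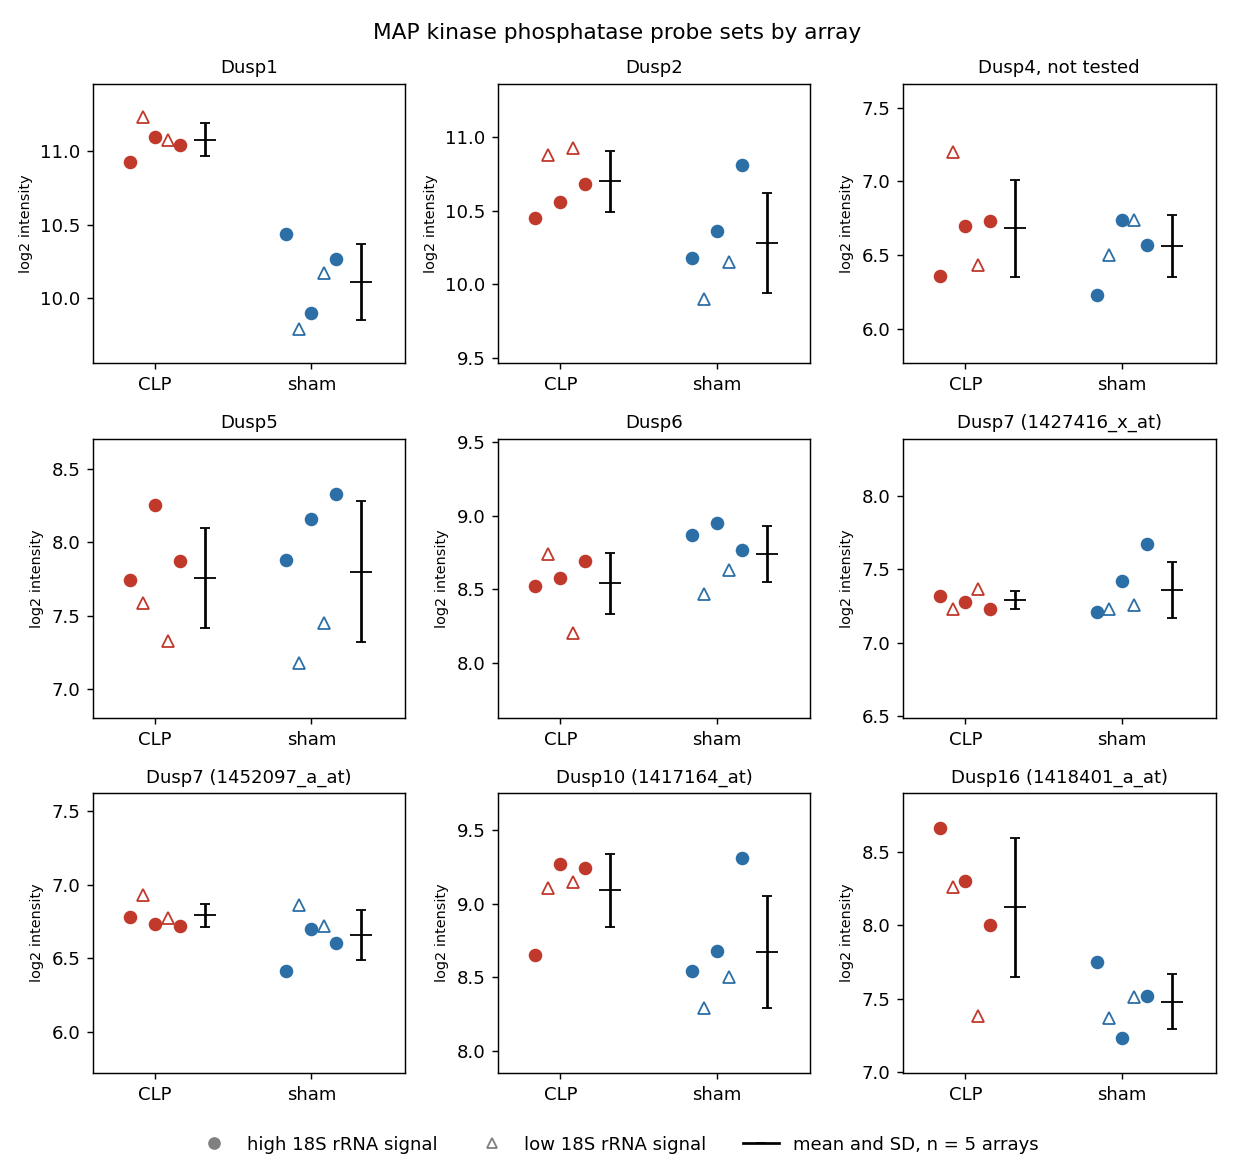
Log2 intensity (vertical axis, each panel spanning the same number of log2 units) of the 8 tested probe sets and of Dusp4 in 5 CLP and 5 sham arrays, with filled circles for arrays of high and open triangles for arrays of low 18S rRNA signal, and mean and SD beside each group. Only in the Dusp1 panel do all CLP points (10.93 to 11.23) lie above all sham points (9.79 to 10.44), and in the Dusp5 panel every triangle (7.18 to 7.59) lies below every circle (7.74 to 8.33).

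The cytoplasmic, ERK-directed members did not pass the test in either direction. Dusp6 (MKP-3, a feedback inhibitor that ERK signalling itself induces) gave log2 intensities of 8.52, 8.74, 8.58, 8.20 and 8.69 in CLP arrays 1 to 5 and of 8.87, 8.47, 8.95, 8.63 and 8.77 in sham arrays 1 to 5. None of the CLP arrays lay above the median of the sham arrays, though the groups overlapped. Its log2 fold change was -0.19 ± 0.13 (SE, 95% interval -0.47 to 0.08, adjusted p = 0.697 by limma).

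Dusp7 (MKP-X, an ERK phosphatase related to Dusp6) was read by 3 probe sets. The brightest ran from 7.23 to 7.37 in CLP and from 7.21 to 7.67 in sham arrays, and its CLP minus sham difference was -0.07 ± 0.10 (SE) on the log2 scale, with an adjusted p of 0.92 by limma. The second ran from 6.72 to 6.93 in CLP and from 6.41 to 6.86 in sham arrays, and its difference was 0.13 ± 0.10 (SE), with an adjusted p of 0.772. They thus differed in sign, and the 95% intervals, -0.29 to 0.15 and -0.08 to 0.34, both include 0. The third fell under the filter, with scaled intensities of 74.0 to 88.0 in CLP and 64.5 to 83.3 in sham arrays.

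Among the JNK- and p38-directed members, Dusp16 (MKP-7, which acts preferentially on JNK) had the largest difference after Dusp1. Its brighter probe set gave log2 intensities of 8.66, 8.26, 8.30, 7.38 and 8.00 in CLP arrays 1 to 5 and of 7.75, 7.37, 7.23, 7.51 and 7.52 in sham arrays 1 to 5. In CLP mice 4 of 5 arrays lay above every sham array, and CLP replicate 4 lay inside the sham range. The means were 8.12 ± 0.47 in CLP and 7.48 ± 0.19 in sham arrays (SD, n = 5 each), and the log2 fold change of 0.64 ± 0.20 (SE, 95% interval 0.20 to 1.09) had an adjusted p of 0.197 by limma. Without CLP replicate 4 it was 0.83 ± 0.14 and passed (adjusted p = 0.0351), and it also passed with arrays weighted by their consistency (0.78, adjusted p = 0.0476). The other probe set of Dusp16 lay at the floor on all 10 arrays, with scaled intensities from 47.3 to 62.2 in CLP and from 47.8 to 59.2 in sham arrays.

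Dusp10 (MKP-5, which acts on JNK and p38 and tunes T cell cytokine responses in mice) was read by its brighter probe set at 8.65, 9.11, 9.27, 9.15 and 9.24 in CLP arrays 1 to 5, and at 8.54, 8.29, 8.68, 8.50 and 9.31 in sham arrays 1 to 5, as log2 intensities. CLP replicate 1 lay among the lower sham arrays and sham replicate 5 above all CLP arrays. The means were 9.09 ± 0.25 in CLP and 8.67 ± 0.38 in sham arrays (SD, n = 5 each), with a log2 fold change of 0.42 ± 0.18 (SE, 95% interval 0.02 to 0.82, adjusted p = 0.422 by limma). Its other probe set lay at the floor on all 10 arrays, at 50.1 to 60.2 in CLP and 45.0 to 60.6 in sham arrays.

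**Figure D2:**
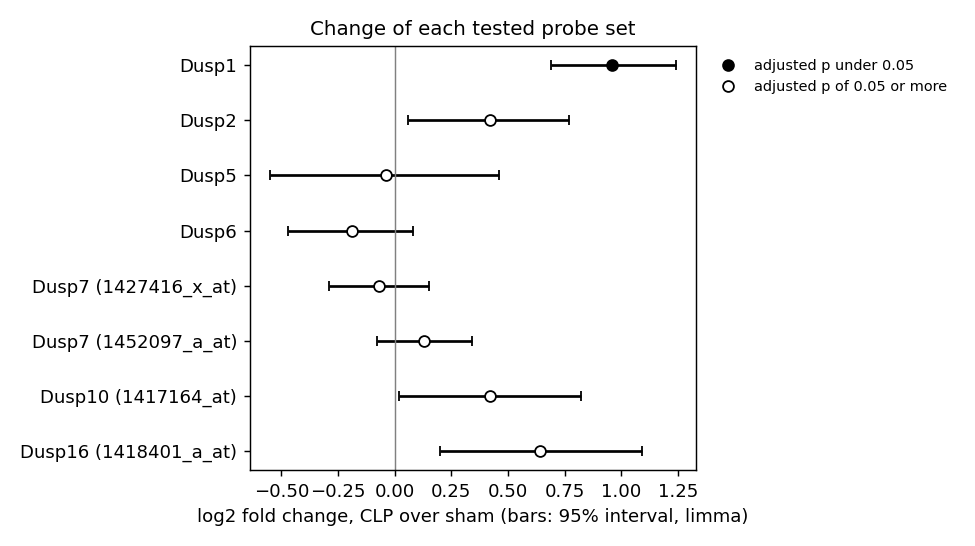
Log2 fold change, CLP over sham (horizontal axis), of each tested probe set, with 95% intervals from limma; the filled point passed the adjusted threshold. The interval of Dusp1 runs from 0.69 to 1.24, those of Dusp16, Dusp2 and Dusp10 begin at 0.20, 0.06 and 0.02, and those of Dusp5, Dusp6 and both Dusp7 probe sets include 0.

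Leaving out single arrays moved the members to different degrees. Over the 10 fits with 1 array left out, Dusp1 passed in 8 and kept a rise of at least 0.88 on the log2 scale, and Dusp16 ran from 0.51 to 0.83 and passed in 1. Dusp2 ran from 0.32 to 0.55 and Dusp10 from 0.33 to 0.58, and neither passed in any of the 10. All 4 kept a positive sign in every one of these fits.

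**Figure D3:**
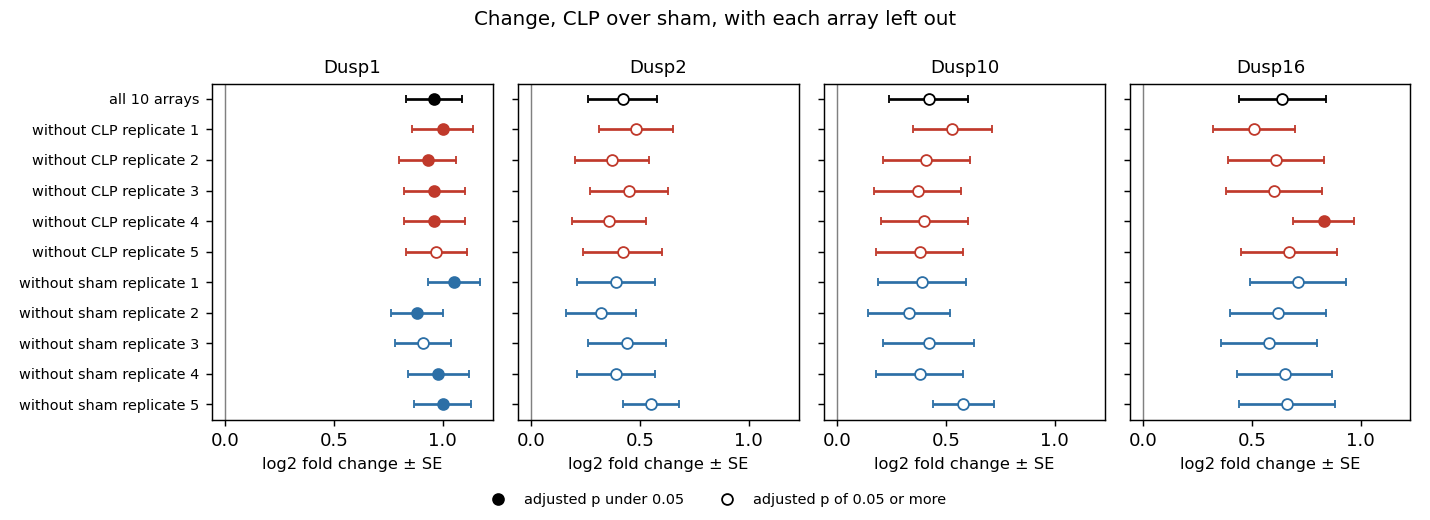
Log2 fold change ± SE, CLP over sham (horizontal axis), of Dusp1, Dusp2, Dusp10 and Dusp16 with all 10 arrays and with each array left out (rows), filled where the adjusted p was under 0.05. Dusp1 is filled except where CLP replicate 5 or sham replicate 3 was left out, and Dusp16 is filled only without CLP replicate 4.

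The arrays fell into 2 classes by the signal of an 18S ribosomal RNA control probe set. The high class held 3 CLP and 3 sham arrays at 3130 to 5180, and the low class 2 CLP and 2 sham arrays at 194 to 268. The labels name no such classes, and their origin was not tested. Since each group held the classes in the same numbers, the class could be kept as a block. Dusp1 passed with it (0.96 ± 0.13, SE, adjusted p = 0.00966 by limma), again as 1 of the 8 tested members, where 0.648% of all tested probe sets rose. Within the high class Dusp1 averaged 11.03 in CLP and 10.20 in sham arrays, and within the low class 11.15 in CLP and 9.98 in sham arrays. Its differences of 0.82 and 1.18 on the log2 scale did not pass within a class (adjusted p = 0.0806 with 3 against 3 and 0.419 with 2 against 2, by limma).

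Dusp5 differed between the classes, at 8.04 ± 0.24 in the 6 high arrays and 7.39 ± 0.17 in the 4 low arrays (SD), with no overlap. With group in the model the difference was 0.65 ± 0.13 on the log2 scale (SE, adjusted p = 0.00888 by limma), and Dusp5 was the only 1 of the 8 tested members to pass, where 15.1% of all tested probe sets did. With the class as a block the SE of its CLP difference was 0.13 in place of 0.23, and the log2 fold change of -0.04 remained under the threshold (adjusted p = 0.929). For Dusp1 and Dusp2 the class difference was 0.05 ± 0.13 and 0.04 ± 0.17 on the log2 scale (SE).

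The CLP difference of Dusp2 was 0.88 in the low class, where CLP arrays averaged 10.90 and sham arrays 10.03, and 0.11 in the high class, where CLP arrays averaged 10.56 and sham arrays 10.45. Dusp10 likewise gave 0.73 in the low and 0.21 in the high class, and Dusp16 gave 0.38 in the low and 0.82 in the high class. The test of these differences between classes gave an adjusted p of 0.999 for every member by limma (unadjusted p = 0.0124 for Dusp2 and 0.159 for Dusp10).

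**Figure D4:**
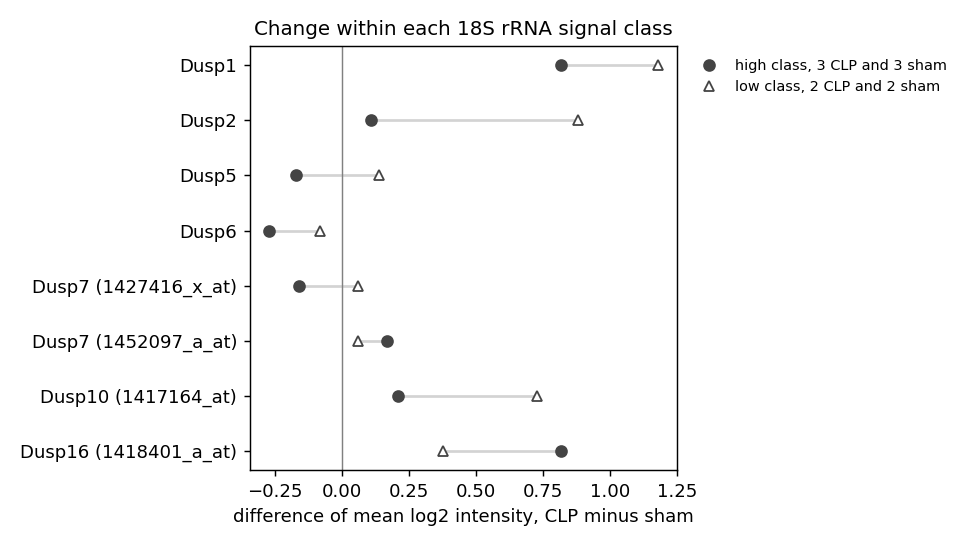
Difference of mean log2 intensity, CLP minus sham (horizontal axis), of each tested probe set within the high (filled circles, 3 against 3 arrays) and low 18S rRNA class (open triangles, 2 against 2 arrays). Dusp1 lies at 0.82 and 1.18, while Dusp2 lies at 0.11 and 0.88; none of these differences between classes passed a test.

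Pairs of members differed in how they varied from mouse to mouse within the groups. Over the 10 arrays, with group means removed, 17 of the 21 pairs of member genes (brightest tested probe set each) had a positive Pearson correlation, with a median of 0.34. The highest were those of Dusp2 with Dusp10 (0.84, and 0.86 with the 18S class also removed), Dusp2 with Dusp7 (0.79 and 0.80) and Dusp7 with Dusp10 (0.70 and 0.67). Sham replicate 5 was the highest sham array for all 3 of these genes. Dusp16 had negative values with Dusp2 (-0.36 and -0.44), Dusp10 (-0.25 and -0.45) and Dusp7 (-0.19 and -0.37). Dusp1 correlated with Dusp2 at 0.46 and with Dusp16 at 0.23. These values describe 10 arrays that share RNA amplification and array quality and carry no test.

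Among all genes, the deviations of Dusp1 were most like those of Rbbp6 (r = 0.96) and Ppp1r14d (0.88), and those of Dusp2 most like those of Snx18 (0.94) and Eif4g3 (0.93). The closest to Dusp5 were Fam168b and Tox4 (0.99 each, and 0.96 and 0.95 with the 18S class removed), to Dusp6 Vrk2 and Tollip (0.95 each), and to Dusp7 Zfp862-ps (0.99) and Clcn6 (0.97). For Dusp10 they were R3hdm2 (0.98) and Ptpn18 (0.96), and for Dusp16 Phf10 and Il1rn (0.94 each). These genes were picked as the highest among all tested genes over only 10 arrays. Such picking alone gives high correlations, and the values carry no test. None of these 14 genes passed for CLP against sham by its brightest probe set. Dimmer probe sets of Rbbp6 fell by 0.71 and 0.91 on the log2 scale (adjusted p = 0.0484 and 0.0298 by limma), so this gene is read differently by its own probe sets.

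The kinases on which these enzymes act did not pass as single genes. Of 37 genes listed for the MAP kinase cascade 29 were tested, none rose and none fell, and their median log2 fold change was -0.02, beside 0 over all 13073 genes tested, of which 0.199% rose and 0.551% fell. The lowest p-values were those of Map3k8 (Tpl2, which activates the ERK cascade downstream of inflammatory receptors; 0.82 ± 0.20, adjusted p = 0.0973 by limma) and Map3k5 (ASK1, a stress-activated kinase above JNK and p38; 0.70 ± 0.18, adjusted p = 0.12). Map2k6, which phosphorylates p38, was 6.97 in CLP and 7.34 in sham arrays with no overlap (-0.37 ± 0.11, adjusted p = 0.174 by limma), where 2.11% of all tested probe sets lay wholly below sham. Rps6ka3, a kinase activated by ERK, gave -0.33 ± 0.12 by its brightest probe set and 0.10 by another. With the 18S class as a block Map3k5 passed (adjusted p = 0.0277 by limma), where 0.648% of all tested probe sets rose.

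Other brakes on the pathway did not pass either. Of 12 genes in that list 10 were tested, with a median of 0.08, of which Ppm1a (a serine and threonine phosphatase; 0.26 ± 0.10), Spry1 (Sprouty 1, an inhibitor of Ras-ERK signalling; 0.24 ± 0.10), Spry4 (0.14 ± 0.08) and Ppm1d (-0.12 ± 0.09) had the lowest p-values. The other probe sets of Ppm1a ran from -0.78 to 0.06. Of 15 atypical dual-specificity phosphatases, which lack the MAP kinase-binding domain, 9 were tested and none passed. Their median was -0.16, with 7 of 9 lower in CLP, while 51.3% of all tested probe sets were higher. Dusp12 (-0.38 ± 0.09, adjusted p = 0.0751 by limma) and Dusp22, a phosphatase that restrains T cell receptor signalling (-0.28 ± 0.09, adjusted p = 0.221), lay wholly below sham, where 2.11% of all tested probe sets did. Dusp19 gave -0.36 ± 0.12 and Styx -0.16 ± 0.10. With the 18S class as a block Dusp12 passed (adjusted p = 0.0424 by limma), where 543 of all 27022 tested probe sets fell. The 2 dimmer probe sets of Dusp12 gave 0.08 and 0.14.

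Transcripts that ERK signalling induces went both ways, and none of 12 tested from a list of 14 passed (median 0.02). Egr3 gave -1.07 ± 0.28 and Egr2 -0.63 ± 0.19, both zinc finger factors induced by the T cell receptor, while Fosl2, an AP-1 subunit, gave 1.20 ± 0.35 and Egr1 -0.23 ± 0.10 (adjusted p between 0.12 and 0.464 by limma). Egr3 lay wholly below sham by its brightest probe set, where 2.11% of all tested probe sets did. Dimmer probe sets of Egr3 and Fosl2 gave 0.04 and 0.11. Of 11 genes induced by glucocorticoid, all tested, 10 had higher means in CLP arrays (median 0.27), where 51.3% of all tested probe sets did. Among the 10 were differences small beside their SE, as for Ddit4 (0.19 ± 0.42) and Tsc22d3 (0.27 ± 0.37). In this list 1 gene rose, Klf9, a transcription factor (1.03 ± 0.13, adjusted p = 0.0163 by limma), where 0.199% of all 13073 genes tested rose. Fkbp5 (0.76 ± 0.16), Mt1 (0.82 ± 0.24) and Per1 (0.89 ± 0.27) did not pass. With the 18S class as a block Fkbp5 did (adjusted p = 0.0322 by limma), where 0.648% of all tested probe sets rose. Dimmer probe sets of Klf9 gave -0.09, 0.52 and 1.08, of which the last passed (adjusted p = 0.0163), those of Fkbp5 and Mt1 0.23 and 0.17.

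**Figure D5:**
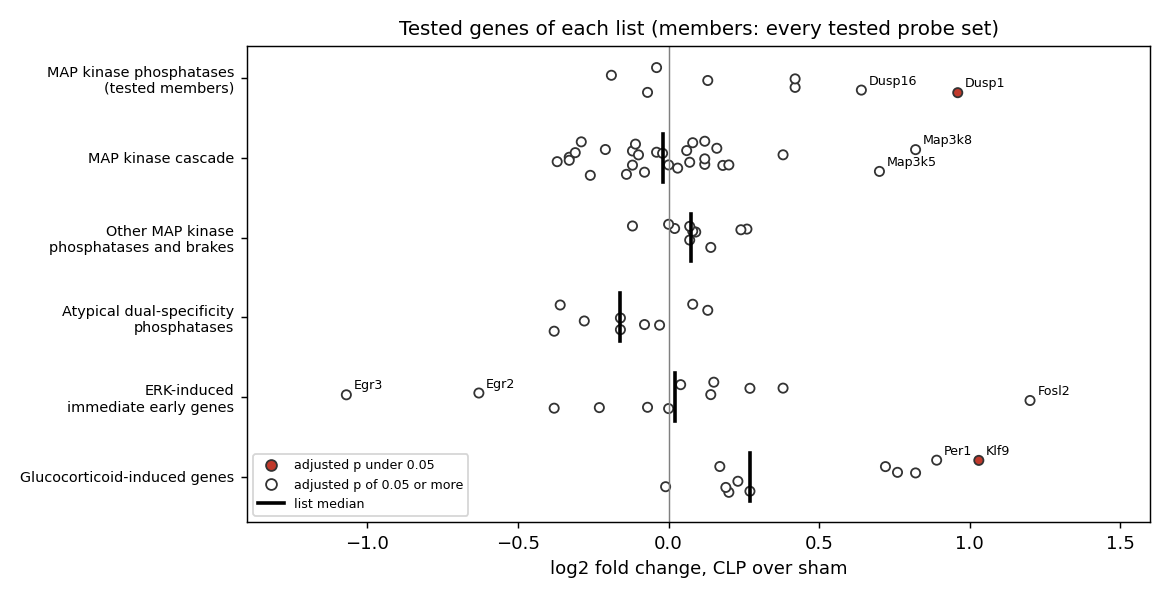
Log2 fold change, CLP over sham (horizontal axis), of each tested member probe set and of the tested genes of 5 lists (rows; 1 point per gene by its brightest probe set, vertical jitter without meaning); filled points passed the adjusted threshold and bars mark list medians. Dusp1 (0.96) and Klf9 (1.03) are the filled points, and the medians of the MAP kinase cascade and the ERK-induced genes lie at -0.02 and 0.02.

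The T cell markers were bright in both groups, with Cd4 at 10.72 in CLP and 10.84 in sham arrays and Cd3e at 11.36 in CLP and 11.48 in sham arrays. All 6 tested of 7 had lower means in CLP arrays (median log2 fold change -0.30), while 51.3% of all tested probe sets had higher means. None of the 6 passed, Thy1 at -0.79 ± 0.27, Cd5 at -0.69 ± 0.17 and Cd3g at -0.49 ± 0.27 being the lowest (adjusted p = 0.249, 0.102 and 0.6 by limma). With the 18S class as a block these 3 fell (adjusted p = 0.0144, 0.0326 and 0.0426 by limma). Under that block 543 of all 27022 tested probe sets fell. The summed scaled intensity of the T cell list ran from 11300 to 13700 in CLP and from 12900 to 19400 in sham arrays. Transcripts of other cells remained, and Dusp1 was not measured by cell type. The summed scaled intensity of 7 of 7 neutrophil markers ran from 1860 to 14900 in CLP and from 3690 to 11100 in sham arrays, that of 7 of 7 monocyte and macrophage markers from 3600 to 4690 in CLP and from 2940 to 4360 in sham arrays, and that of 5 of 6 B cell markers from 2610 to 5430 in CLP and from 2680 to 4480 in sham arrays. The 4 of 7 erythroid markers tested summed to 993 to 4470 in CLP and 546 to 1890 in sham arrays. None of the markers of these 4 lists passed by its brightest probe set, Cd14 giving 0.72 ± 0.21 (adjusted p = 0.156 by limma). A dimmer probe set of the monocyte marker Ccr2 fell by 0.99 on the log2 scale (adjusted p = 0.0163), where its brightest gave 0.07. CLP replicate 1 had the highest sum of the neutrophil, B cell and erythroid lists, while its monocyte and macrophage sum was 3710. Without it Dusp1 gave 1.00 on the log2 scale (adjusted p = 0.00571 by limma). It was also the CLP array lowest in Dusp1, at 10.93, so leaving it out could only raise the difference, whatever cells it held. Of the regulatory T cell markers Foxp3 gave 1.10 ± 0.22 and Ctla4 1.44 ± 0.29 (adjusted p = 0.053 and 0.0513), while Ikzf2 gave -0.29 and Il2ra -0.10. Foxp3 and Ctla4 passed with the 18S class as a block (adjusted p = 0.0277 and 0.028 by limma), where 0.648% of all tested probe sets rose. The 4 markers summed to 3020 to 4760 in CLP and 2690 to 3640 in sham arrays. The part of any of these cells in the Dusp1 result was not tested.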

How the data were processed

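RNA of CD4+ splenocytes from 5 CLP and 5 sham mice was measured on 1 Affymetrix array per mouse. The values that the authors deposited are linear intensities of probe sets; how these were computed, corrected and scaled is not given in the sources used here. Biotin-labelled cRNA was made with 2 rounds of amplification, per the labels' protocols. Array medians ran from 127.6 to 142.4, and precision is limited by the small number of arrays.

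The medians of the arrays were made equal by scaling, values under the 25th percentile (70.4) were raised to it, and log2 was taken. Probe sets whose mean log2 lay under the 40th percentile (6.71) were dropped with the 64 controls. The groups were then compared by limma (version 3.58.1, R 4.3.3), with Benjamini-Hochberg adjustment over all 27022 probe sets; intervals are 95%. The fit was tested on simulated data. A listed gene stands by its brightest tested probe set. Named were every member probe set, the 4 lowest p-values of each pathway list (also genes named after their values were seen, such as Foxp3, Ctla4, Thy1, Cd5, Cd3g, Ccr2 and Cd14), and the 2 genes most correlated with each member. The 18S classes were cut at an intensity of 1000. Members, lists and the classes were chosen with earlier results of these data known. Symbols come from the platform annotation, where 34945 probe sets had 1 symbol, 932 several and 9160 none. Sham numbers are the suffixes in the titles. Figures used matplotlib 3.10.9. Alternatives were other normalization, floors, filters, variance models, weights and blocks, and each array left out.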

Additional observations from a re-analysis of the deposited data

Results flagged for a closer look

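The Dusp10 signal of CLP replicate 1, at 8.65 on the log2 scale, stood apart from the other 4 CLP arrays at 9.11 to 9.27: its gap to the nearest of them was 0.743 of the group's range, above the critical value of 0.71 for 5 samples. This was 1 of 20 checks of a probe set in a group, and chance gives about 1 in 20. Without that array the log2 fold change of Dusp10 was 0.53 in place of 0.42 and did not pass (adjusted p = 0.202 by limma).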

How the results depend on the processing

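Dusp1 kept a positive log2 fold change in all 24 other settings, from 0.82 to 1.18, and passed in 19 of them (adjusted p from 0.00571 to 0.419 by limma). Dusp2, Dusp10 and Dusp16 kept a positive and Dusp6 a negative sign in all 24 each. The count of member probe sets called was 1, and it was 0 with no filter and within either 18S class, 2 with array weights, and between 0 and 2 with 1 array left out. Probe sets called higher and lower, 45 and 145 as reported, became 0 and 3 with no filter, 154 and 355 with array weights, 175 and 543 with the 18S class as a block, and 0 and 0 within the high and within the low class (3611 and 1959 at an unadjusted p under 0.05 by limma, against 2951 as reported). Testing only the brightest probe set per gene gave 90 lower. With 1 array left out they ran from 0 to 123 higher and from 4 to 383 lower. The replicate block gave 90 higher and 158 lower, Dusp1 still passed under it (adjusted p = 0.0375), and no member call changed. Same-numbered arrays deviated together with correlations from 0.06 to 0.58. Not every array correlated best with its own number, so the numbers are not taken as pairs. The 18S class followed the number in both groups, with replicates 2 and 4 low and replicates 1, 3 and 5 high. Whether the numbers mark shared processing was not tested. The sign of Dusp5 turned with array weights and within the low class (0.14 in both), and it ran from -0.20 to 0.09 with 1 array left out. That of the brightest Dusp7 probe set turned within the low class (0.06), and it ran from -0.11 to 0.01 with 1 array left out. With no filter 45037 probe sets were tested, and the unadjusted p of Dusp1 by limma was 3.99e-05 in place of 7.41e-06. The cause of this and of the other shifts was not tested. Neither tested Dusp7 probe set gave a value with the filter at the 60th percentile. The dimmer of them also gave none with the floor at the 40th percentile or with only the brightest probe set per gene. Signals near the floor of 70.4 limit Dusp4 and 3 other member probe sets.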
